A study of Brassica napus with 27 samples.

Results

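Leaves of oilseed rape, Brassica napus cultivar Westar, were compared between a double mutant line and wild type after 2 days in short days (SD2), in 3 libraries against 3. The double line, labelled bnafah and coming from 1 line (A52_4), is transgene-free and carries CRISPR/Cas9 mutations in BnaA06FAH and BnaC05FAH, the 2 genes for fumarylacetoacetate hydrolase that the study targeted. The 6 libraries are all of those whose labels give these genotypes at SD2, out of 27 in the series. The other 21 are the same genotypes in long days (LD, 0 short days) and at SD1 (after 1 short day), and a single mutant line, bnaa06fah, at all 3 stages. All plants were raised on MS medium and then for 2 weeks in soil in long days before the transfer to short days. The labels give long and short days the same light period of 16 h, and they name the lines knock-down in some places and null in others; group names follow the labels. Age and sampling day also differ between stages. The FAH genes are not analysed here, so they did not serve to check the genotype labels.

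Fumarylacetoacetate hydrolase is the last enzyme of tyrosine degradation in plants as in animals. Its substrates are reactive acids that can damage cells when they build up, and in Arabidopsis seedlings that lack the enzyme die in short days. The comparison addresses which transcripts differ in such leaves when the study looked for programmed cell death. Cells under protein-folding stress in the endoplasmic reticulum raise chaperones such as BiP, and dying or senescing leaves break down pigments and export sugars and nitrogen.

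Total counts of the 27 libraries ranged from 49700646 to 58862542, and the 6 libraries compared here held 52411453 to 57404555. The 10 most counted genes took between 3.45% and 4.92% of the counts of the double line at SD2 and between 5.18% and 6.09% of those of wild type at SD2. The labels do not say whether the replicates are separate plants, so the p-values reflect only how far these libraries spread, which may be technical. Of the 72039 genes with enough counts to be tested, 413 nuclear genes carry a gene symbol in the sources used here, so most genes are given by count. Leaf-specific photosynthesis genes are not among the symbols, and the tissue was checked through genes of other organs. The 2 tested flower marker genes summed to 0 to 0.317 CPM (counts-per-million on normalised library sizes) in the 6 libraries, and 5 others had too few counts to be tested. The 4 tested genes of secondary cell walls in vessels summed to 7.73, 15.7 and 13.5 CPM in the double line and to 4.10, 8.83 and 12.6 CPM in wild type. With edgeR 0 of these 4 passed, 1 had an unadjusted p under 0.05, and DESeq2 called 0. The 2 tested genes of the seed list summed to 51.1 to 57.7 CPM in the double line and 39.7 to 85.2 CPM in wild type. Nearly all of it was CLO3 (LOC106375853), a caleosin listed by its name. Whether CLO3 marks seed tissue was not tested, so this sum is no check of the tissue. The 2 tested genes of dividing cells summed to 4.81, 13.1 and 3.00 CPM in the double line and to 6.92, 11.04 and 7.76 CPM in wild type. Of these 4 genes 0 passed with edgeR, 0 had an unadjusted p under 0.05, and DESeq2 called 0. Without double replicate 2, 1 gene of dividing cells had an unadjusted p under 0.05, and the median log2 fold change of the pair was -1.11.

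Replicate 2 of the double line at SD2 stood apart from replicates 1 and 3, and results that rest on it are given with and without it. The correlation of log2 CPM was 0.957 between replicates 1 and 3 but 0.899 and 0.883 between replicate 2 and these, while wild-type libraries at SD2 correlated at 0.928 to 0.941. Replicate 2 correlated more closely with every double library in LD and at SD1 (0.914 to 0.936) than with the other double libraries of its own stage. The highest of these values were with replicate 2 at SD1 (0.936) and in LD (0.933). With wild-type replicates 1, 2 and 3 at SD2 it correlated at 0.896, 0.927 and 0.898. Its genotype label was checked on genes that were silent in 1 genotype in the other stages. Of 47 genes at 0 in every double library in LD and at SD1 but with at least 10 counts in every wild-type library there, 44, 45 and 44 were at 0 in double replicates 1, 2 and 3 at SD2, and 0 of them were at 0 in any wild-type library. Of 38 genes with the reverse pattern, 38, 37 and 38 had at least 10 counts in these 3 libraries, and none had so many in wild type at SD2. At these genes replicate 2 had the pattern of the double line and not that of wild type. The check was not made against the single line, which shares many such genes with the double line (below). The first principal component, the axis of largest variation among the 27 libraries, held 36.1% of the variance of the most variable genes. On it double replicates 1, 2 and 3 at SD2 lay at -57.7, -59.8 and -58.9. The single line at SD2 lay at 129, 127 and 136, and wild type at -63.0, -69.9 and -68.2.

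With all 27 libraries in 1 edgeR quasi-likelihood fit, 4899 of 72039 genes differed between the double line and wild type at SD2 (adjusted p under 0.05), a share of 6.80%. Called and passed refer to edgeR in this fit unless another tool or fit is named. The count depended on single libraries: it was 1126 without double replicate 1, 1163 without double replicate 3, 1293 and 1533 without wild-type replicates 1 and 3, and 5270 without wild-type replicate 2. With the 6 libraries alone it was 272. Of the 4899, 2514 were higher (3.49% of all genes tested) and 2385 lower (3.31%). At least a 2-fold difference was found for 1807 of the higher and 1876 of the lower genes, and at least a 4-fold difference for 611 and 844. The 3 double libraries lay wholly outside the range of the 3 wild-type libraries for 2061 of the higher and 2251 of the lower genes, beside 16850 such genes (23.4%) among all 72039. In bulk leaf RNA, fewer cells of a type and less RNA per cell cannot be told apart. Without double replicate 2, 13280 of 73773 genes were called (18.0%), 6174 of them higher (8.37%) and 7106 lower (9.63%). They include 4704 of the genes called with all libraries in the same direction, which is 96.0% of the shorter list and 35.4% of the longer.

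The position of each double library was measured over the genes called without it, on a scale where 0 is the wild-type mean and 1 the mean of the other 2 double libraries. Over 1126 genes, replicate 1 lay at a median of 1.07, and over 1163 genes replicate 3 lay at 1.08. Replicate 2 lay at a median of 0.231 over 13241 genes, with quartiles at -0.0349 and 0.487. It was on the same side of the wild-type mean as the other double libraries for 72.2% of these genes and within the range of the wild-type libraries for 34.5%. These genes were chosen on the other 2 double libraries and the same wild-type mean that sets the scale, and the 3 gene lists differ, so the values are a description and no test.

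**Figure D1:**
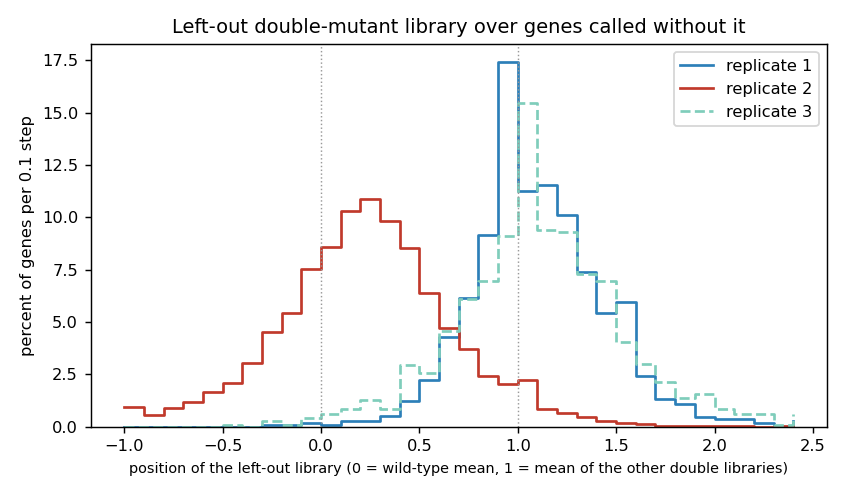
Percent of genes (y axis, in steps of 0.1) by the position of a left-out double-mutant library at SD2 (x axis, 0 is the wild-type mean and 1 the mean of the other double libraries), for genes called without that library. Replicates 1 and 3 peak near 1 (medians 1.07 and 1.08) and replicate 2 between 0 and 0.5 (median 0.231). Values beyond the ends of the axis are drawn in the outermost steps.

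Among the 413 named nuclear genes, 17 were higher and 21 lower, or 9.20% beside the 6.80% of all genes. Without double replicate 2, 32 were higher and 53 lower, or 20.6% beside 18.0%. Of the named genes, 36 were called in both fits, 49 only without replicate 2 and 2 only with it. These shares lie near those of all genes, so the named genes are described singly. Of the 38 named genes called, 29 lost the call when at least 1 library was left out: 26 without double replicate 1, 28 without double replicate 3, 26, 11 and 25 without wild-type replicates 1, 2 and 3, and 2 without double replicate 2. The 9 that kept it are named below.

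**Figure D2:**
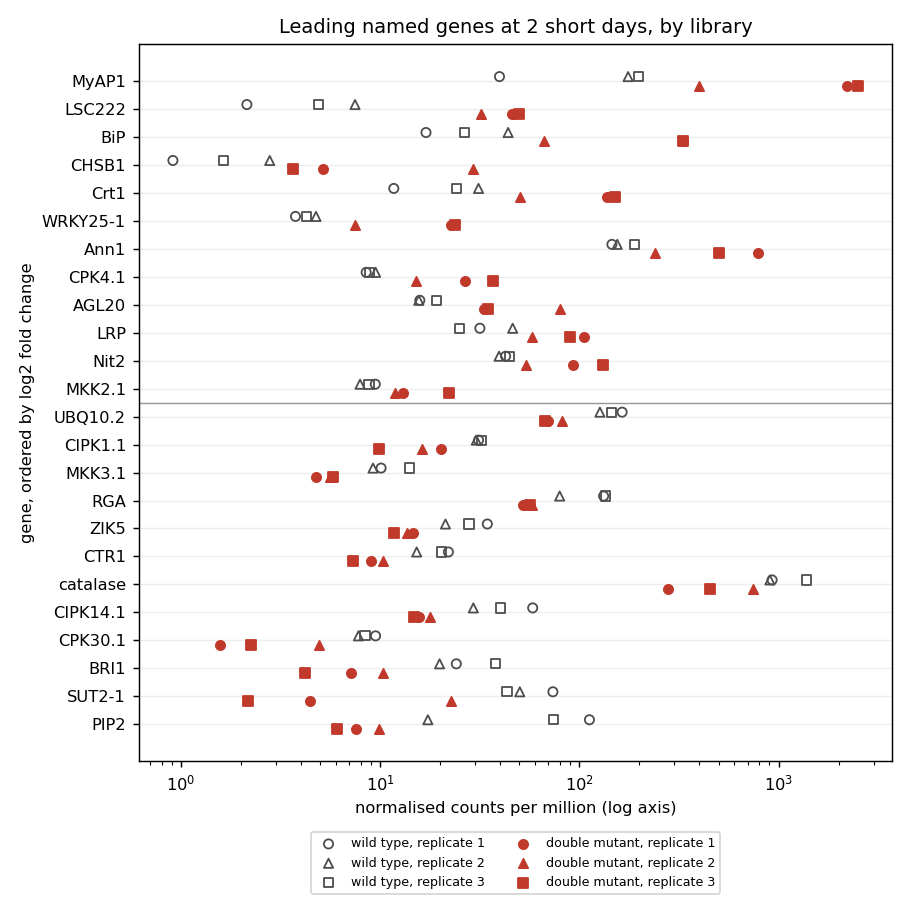
Normalised CPM (log x axis) in the 3 wild-type (open) and 3 double-mutant (filled) libraries at SD2. Shown are the 12 leading named genes above wild type and the 12 below it, by fold change at this stage. They are in order of log2 fold change, and the symbol shape gives the replicate. Replicate 2 of the double line (filled triangle) lies nearer to wild type than the other double libraries for most of the genes, and above them for AGL20 and CHSB1.

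Chaperone genes of the endoplasmic reticulum were among the largest differences. Of the 3 genes on the list of folding in this compartment, 2 were higher, beside 3.49% of all genes tested, and the median log2 fold change was 2.34, beside -0.01 over all genes. BiP (LOC106345946), the Hsp70 chaperone of the endoplasmic reticulum lumen, stood at 333, 66.3 and 333 CPM in double replicates 1, 2 and 3 and at 17, 43.9 and 26.5 CPM in wild type. The double libraries were all above wild type, with replicate 2 the lowest, and the log2 fold change was 3.07 ± 0.60 SE, edgeR adjusted p = 0.00478, or 3.51 ± 0.56 SE, edgeR adjusted p = 2.69e-04 without replicate 2. Crt1 (LOC106415836), a calreticulin that binds calcium and folds glycoproteins, stood at 138, 50.4 and 151 CPM against 11.7, 31.2 and 24.2 CPM. Again the double libraries did not overlap wild type, and the log2 fold change was 2.34 ± 0.48 SE, edgeR adjusted p = 0.00631, or 2.69 ± 0.47 SE, edgeR adjusted p = 6.06e-04 without replicate 2. BI-1 (LOC106381875), a Bax inhibitor that restrains cell death from the membrane of the endoplasmic reticulum, stood at 43.2, 15.6 and 45.6 CPM against 19.7, 19.8 and 23.2 CPM. Replicate 2 was below every wild-type library and the other double libraries above them all, so that BI-1 did not pass with all libraries (log2 0.73 ± 0.27 SE, edgeR adjusted p = 0.0959) and did without replicate 2 (log2 1.08 ± 0.20 SE, edgeR adjusted p = 9.57e-04), when all 3 genes of the list were higher. In the single line at SD2, BiP averaged 52.8 ± 42.5 CPM (mean ± SD, n = 3) and Crt1 32.6 ± 8.85 CPM, and the double line was higher than the single line for both (edgeR adjusted p = 0.0218 and 0.0207).

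LSC222 (LOC106360896), for which the sources used here give no more than a symbol, kept its level in replicate 2. It stood at 45.8, 32.1 and 49.5 CPM in the double line and at 2.15, 7.49 and 4.92 CPM in wild type, a log2 fold change of 3.13 ± 0.61 SE, edgeR adjusted p = 0.00484. Every double library lay far above the highest wild-type library, and this was the one named gene of the comparison that passed in every alternative fit, including that of the 6 libraries alone. AOC3.1 (LOC106437957), an allene oxide cyclase that makes the precursor of jasmonate, stood at 14.4, 0.667 and 7.86 CPM against 0.128, 0.428 and 0.890 CPM. Replicates 1 and 3 lay above wild type and replicate 2 within the wild-type range (log2 3.98 ± 0.98 SE, edgeR adjusted p = 0.0191). The call was lost without double replicate 1, double replicate 3 or wild-type replicate 1.

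Plants of the cabbage family store glucosinolates, which myrosinases split into toxic products when cells break. Of 8 tested genes of this system, 2 were higher and 0 lower, beside 3.49% and 3.31% of all genes, with a median log2 fold change of 1.12. Without replicate 2, 3 were higher and 1 lower, beside 8.37% and 9.63%, with a median of 0.32. MyAP1 (LOC106348442), a myrosinase-associated protein, stood at 2207, 399.8 and 2510.4 CPM in the double line and 39.8, 176 and 198 CPM in wild type. The double libraries lay above all wild-type libraries but spread widely, with replicate 2 the lowest, and the log2 fold change was 3.63 ± 1.07 SE, edgeR adjusted p = 0.0447. Nit2 (LOC106437374), a nitrilase, stood at 93.3, 54.1 and 131 CPM against 42.7, 39.6 and 44.6 CPM (log2 1.14 ± 0.30 SE, edgeR adjusted p = 0.0275). CYP83B1-5 (LOC106372082), a P450 of indole glucosinolate synthesis, stood at 114, 39.6 and 135 CPM against 25.95, 29.07 and 32.9 CPM. It did not pass in edgeR with all libraries (log2 1.72 ± 0.53 SE, edgeR adjusted p = 0.0547), passed in edgeR without replicate 2 (log2 2.09 ± 0.54 SE, edgeR adjusted p = 0.0104) and was called by DESeq2 with all libraries (adjusted p = 0.0119). CYP83A1-5 (LOC106430121), the corresponding enzyme of aliphatic glucosinolates, stood at 43.4, 375 and 26.5 CPM against 96.6, 226 and 93.2 CPM. In both genotypes replicate 2 was the highest library, and with replicate 2 of the double line left out the gene was lower (log2 -1.99 ± 0.67 SE, edgeR adjusted p = 0.0444), whereas with all libraries the value was log2 0.10 ± 0.74 SE, edgeR adjusted p = 0.96.

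Among 30 tested WRKY transcription factors, which include regulators of stress responses, 2 were higher and 1 lower, beside 3.49% and 3.31% of all genes, with a median log2 fold change of 0.13. WRKY25-1 (LOC106407015), of a group that acts in heat tolerance in Arabidopsis, stood at 22.7, 7.48 and 23.9 CPM against 3.76, 4.77 and 4.27 CPM, with no overlap (log2 2.08 ± 0.57 SE, edgeR adjusted p = 0.032). WRKY26-1 (LOC106422600), of the same group, stood at 7.22, 1.72 and 11.2 CPM against 2.19, 0.764 and 3.07 CPM, and its replicate 2 lay within the wild-type range (log2 1.74 ± 0.52 SE, edgeR adjusted p = 0.0456). WRKY74-1 (LOC106348780) had no count in the double line at SD2 and 0.464, 0.428 and 0.200 CPM in wild type, at least 6.91-fold lower against a floor of 3 counts per library (edgeR adjusted p = 0.0377). WRKY53-1 (LOC106441470), whose Arabidopsis counterpart promotes senescence, stood at 10.8, 3.21 and 15.0 CPM against 0.897, 1.32 and 2.49 CPM and passed in edgeR without replicate 2 (log2 3.04 ± 1.01 SE, edgeR adjusted p = 0.042) but not with it (log2 2.63 ± 0.96 SE, edgeR adjusted p = 0.0954), where DESeq2 called it (adjusted p = 0.0401). NAC29.1 (LOC106354073), from a family whose Arabidopsis member also promotes senescence, was by contrast lower, at 0.122, 0.140 and 0.0789 CPM against 1.10, 0.168 and 3.47 CPM (log2 -3.77 ± 1.04 SE, edgeR adjusted p = 0.0326). It was the 1 gene called of 33 NAC genes tested, at low levels, and wild-type replicate 2 nearly reached the double libraries. Of 14 MYB genes 0 passed with edgeR, 3 had an unadjusted p under 0.05, DESeq2 called 0, and 1 was lower without replicate 2. Of 3 salicylate genes 0 passed with or without replicate 2, 0 had an unadjusted p under 0.05, and DESeq2 called 0. The senescence list of 3 tested genes is made up of NAC29.1, WRKY53-1 and WRKY53 (LOC106375988). WRKY53 stood at 2.75, 0.755 and 2.84 CPM against 0.416, 0.242 and 0.727 CPM, above wild type in each double library, and did not pass (log2 2.19 ± 0.94 SE, edgeR adjusted p = 0.151, and 2.59 ± 0.98 SE, edgeR adjusted p = 0.0735 without replicate 2). On this list 0 were higher and 1 lower with all libraries, and 1 higher and 1 lower without replicate 2. Its median log2 fold change was 2.19 with 2 of 3 positive, all 3 had an unadjusted p under 0.05, and DESeq2 called 2. Such values were common: of all 72039 genes, 17500 had an unadjusted p under 0.05 and DESeq2 called 8968. Without replicate 2, 8.37% of all genes were higher and 9.63% lower in edgeR. A list of 3 genes at low levels is too short to set against these shares.

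Calcium-dependent kinases differed in both directions. Of 12 tested CPK genes, 3 were higher and 1 lower, beside 3.49% and 3.31% of all genes, and without replicate 2, 4 were higher and 1 lower, beside 8.37% and 9.63%. CPK4.1 (LOC106438489) stood at 26.7, 15.2 and 37.1 CPM against 8.52, 9.50 and 8.81 CPM, with a narrow wild-type range below every double library (log2 1.56 ± 0.24 SE, edgeR adjusted p = 5.94e-04). This gene lies in a block of chromosome A3 with raised transcripts in all 3 stages of the double line (below), and its log2 difference was 0.73 in LD and 0.94 at SD1 (edgeR adjusted p = 0.232 and 0.0893). CPK4.2 (LOC106423559) stood at 21.1, 18.1 and 27.5 CPM against 12.9, 13.7 and 12.4 CPM (log2 0.77 ± 0.19 SE, edgeR adjusted p = 0.0196), and CPK3-2.1 (LOC106376326) at 38.5, 33.7 and 48.8 CPM against 24.9, 26.4 and 23.5 CPM (log2 0.69 ± 0.20 SE, edgeR adjusted p = 0.0416). CPK30.1 (LOC106354405) was lower, at 1.57, 4.95 and 2.24 CPM against 9.49, 7.78 and 8.39 CPM, and replicate 2 kept the highest level of the double libraries (log2 -1.55 ± 0.34 SE, edgeR adjusted p = 0.00937). Of 24 genes for calcineurin B-like sensors and the CIPK kinases they activate, 0 were higher and 2 lower, beside 3.49% and 3.31% of all genes. CIPK14.1 (LOC106435460) stood at 15.7, 17.9 and 14.8 CPM against 58.4, 29.4 and 40.1 CPM, with replicate 2 at the level of the other double libraries (log2 -1.40 ± 0.26 SE, edgeR adjusted p = 0.00322). CIPK1.1 (LOC106389209) stood at 20.1, 16.3 and 9.89 CPM against 31.2, 30.4 and 32.2 CPM (log2 -1.02 ± 0.27 SE, edgeR adjusted p = 0.0262). Ann1 (LOC106347720), an annexin that binds membranes in the presence of calcium, was higher, at 788, 239 and 500.2 CPM against 146, 155 and 189 CPM (log2 1.64 ± 0.45 SE, edgeR adjusted p = 0.0325).

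Of 35 tested genes of the MAP kinase cascade, Raf-like and ZIK kinases included, 1 was higher and 5 lower, beside 3.49% and 3.31% of all genes, and without replicate 2, 3 were higher and 8 lower, beside 8.37% and 9.63%. CTR1 (LOC106372651), a kinase of the Raf family that represses ethylene signalling, stood at 9.02, 10.3 and 7.29 CPM against 22.03, 15.3 and 20.3 CPM. The 3 double libraries were close to each other and below all wild-type libraries (log2 -1.12 ± 0.18 SE, edgeR adjusted p = 0.00105). In LD CTR1 stood at 10.4, 9.24 and 10.1 CPM in the double line and 9.24, 10.5 and 8.37 CPM in wild type. Its level was thus higher at SD2 than in LD in wild type, and near the LD level in the double line. Raf29.1 (LOC106361286) stood at 0, 0.193 and 0.489 CPM in the double line and 4.75, 2.496 and 5.96 CPM in wild type (log2 -4.26 ± 0.68 SE, edgeR adjusted p = 8.34e-04), and its differences in LD and at SD1 were log2 -0.99 and -2.56 (edgeR adjusted p = 0.539 and 0.059). ZIK5 (LOC106346887) stood at 14.6, 13.7 and 11.7 CPM against 34.5, 21.3 and 27.9 CPM (log2 -1.07 ± 0.22 SE, edgeR adjusted p = 0.00736), and in LD at 24.7, 18.1 and 14.5 CPM against 11.5, 16.1 and 12.6 CPM. MKK3.1 (LOC106391030), a MAP kinase kinase, stood at 4.79, 5.62 and 5.78 CPM against 10.1, 9.22 and 14.10 CPM (log2 -1.05 ± 0.23 SE, edgeR adjusted p = 0.0109). In LD it stood at 5.69, 5.96 and 6.94 CPM in the double line and 10.01, 14.13 and 8.90 CPM in wild type. Every double library was thus below wild type before the transfer too. At SD1 it stood at 6.54, 4.17 and 7.93 CPM against 7.78, 9.74 and 9.58 CPM, with double replicate 3 within the wild-type range. The single line averaged 5.39 ± 0.735 CPM (SD, n = 3) at SD2. The log2 difference between the double and single line was 0.00 ± 0.23 SE and did not pass (edgeR adjusted p = 1). MAPKKK20.1 (LOC106394457) was lower, at 0.641, 1.28 and 0.710 CPM against 5.09, 3.37 and 3.25 CPM (log2 -2.15 ± 0.65 SE, edgeR adjusted p = 0.0481). MKK2.1 (LOC106418613) was the higher member, at 13.0, 11.8 and 22.1 CPM against 9.46, 7.93 and 8.79 CPM (log2 0.84 ± 0.21 SE, edgeR adjusted p = 0.0188).

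An aquaporin, a sucrose transporter and 3 genes of hormone response were lower. PIP2 (LOC106392705), an aquaporin of the plasma membrane, stood at 7.61, 9.83 and 6.06 CPM in the double line and 112, 17.4 and 74.2 CPM in wild type. All double libraries were under 10 CPM, while the wild-type libraries spread widely with replicate 2 the lowest, and the log2 fold change was -3.12 ± 0.47 SE, edgeR adjusted p = 4.37e-04. The other 2 aquaporins, PIP1 (LOC106382572) and gamma-TIP2 (LOC106410672), did not pass, at log2 -0.39 and -0.47 (edgeR adjusted p = 0.529 and 0.446). SUT2-1 (LOC106400948), a sucrose transporter, stood at 4.45, 22.7 and 2.18 CPM against 73.7, 50.3 and 43.4 CPM. Replicate 2 stood between the other double libraries and wild type, and the log2 fold change was -2.52 ± 0.70 SE, edgeR adjusted p = 0.0348 with it and -4.07 ± 0.72 SE, edgeR adjusted p = 7.61e-04 without it. The other 3 sucrose transporters, SUT1-2, SUT3-2 and SUT4-2, did not pass in edgeR, at log2 0.82, 0.31 and -0.04, though DESeq2 called SUT1-2 (adjusted p = 0.0408). BRI1 (LOC106349513), the brassinosteroid receptor, stood at 7.12, 10.3 and 4.18 CPM against 24.1, 19.9 and 38.0 CPM (log2 -1.92 ± 0.36 SE, edgeR adjusted p = 0.00332), and the kinases BSK1 and BSK2 next to it in the pathway did not pass, at log2 -0.25 and -0.13. RGA (LOC106445425), a DELLA repressor of the gibberellin response, stood at 52, 58.1 and 56.3 CPM against 132, 79.7 and 136 CPM and was the 1 called of 7 gibberellin genes (log2 -1.06 ± 0.28 SE, edgeR adjusted p = 0.0245). CHK1 (LOC106390821), the 1 called of 7 cytokinin genes, stood at 8.05, 11.3 and 8.98 CPM against 18.8, 11.5 and 17 CPM, and its replicate 2 was just under the lowest wild-type library (log2 -0.74 ± 0.18 SE, edgeR adjusted p = 0.0173). CTR1, described above, was the 1 called of 5 ethylene genes. Of 9 abscisic acid, 8 nitrogen assimilation and 10 cell wall genes 0 passed with edgeR, 4, 2 and 1 had an unadjusted p under 0.05, and DESeq2 called 1, 1 and 0. Without replicate 2, 1 abscisic acid gene was lower, 1 nitrogen gene higher and 2 lower, and 1 cell wall gene lower. Beside the list counts of this paragraph, 3.49% of all genes were higher and 3.31% lower with all libraries. Without replicate 2 these shares were 8.37% and 9.63%. Of all 72039 genes, 17500 had an unadjusted p under 0.05 and DESeq2 called 8968. The 1 tested tocopherol gene did not pass.

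Of the 3 tested genes of light signalling, 2 were lower, beside 3.31% of all genes. cry1 (LOC106429586), a blue-light receptor, stood at 40.5, 62.6 and 31.9 CPM against 88.0, 84.9 and 93.1 CPM, and cry2 (LOC106424300), its relative, at 41.7, 80.3 and 57.4 CPM against 130.5, 86.0 and 114 CPM. The double libraries of both genes lay below all wild-type libraries, and the log2 fold changes were -0.98 ± 0.22 SE, edgeR adjusted p = 0.0116 for cry1 and -0.88 ± 0.23 SE, edgeR adjusted p = 0.0267 for cry2. cop1 (LOC106451277), a ubiquitin ligase that acts with these receptors, did not pass (log2 -0.13). Catalase (LOC106358221), which breaks down hydrogen peroxide, stood at 277, 748 and 453 CPM against 928, 905 and 1383 CPM and was the 1 called of 3 tested genes of reactive oxygen removal (log2 -1.12 ± 0.31 SE, edgeR adjusted p = 0.0329, and -1.55 ± 0.31 SE, edgeR adjusted p = 0.00176 without replicate 2). In LD it stood at 469, 616 and 401 CPM in the double line and 630, 568 and 560 CPM in wild type, which was thus higher at SD2.

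Of 13 genes of carotenoid synthesis and cleavage, a list drawn up after their values were seen, 0 were higher and 1 lower with all libraries, and 0 were higher and 6 lower without replicate 2. The shares lower over all genes were 3.31% and 9.63%. The median log2 fold change was -0.27 with all libraries and -0.52 without replicate 2, beside -0.01 and -0.07 over all genes tested. ZEP (LOC106358361), zeaxanthin epoxidase, stood at 156, 229 and 183 CPM against 371, 343 and 333 CPM (log2 -0.88 ± 0.24 SE, edgeR adjusted p = 0.0303). VDE (LOC106415200), which runs the xanthophyll cycle in the other direction, stood at 25.6, 46.3 and 23.3 CPM against 44.3, 45.8 and 51.3 CPM, so that replicate 2 was at the wild-type level (log2 -0.95 ± 0.19 SE, edgeR adjusted p = 0.00188 without it). LYCB (LOC106452665), lycopene cyclase, stood at 25.03, 46.5 and 23.2 CPM against 39.9, 37.1 and 40.4 CPM, with replicate 2 the highest of all 6 libraries (log2 -0.70 ± 0.16 SE, edgeR adjusted p = 0.00558 without it). CCD, BCH and ZDS, genes for carotenoid cleavage, hydroxylation and desaturation, were called without replicate 2 at log2 -0.74, -0.87 and -0.48, and in each of them replicate 2 was between or above the wild-type libraries. With all libraries VDE, LYCB, CCD, BCH and ZDS did not pass in edgeR. CCD and BCH then stood at log2 -0.40 and -0.52 (edgeR adjusted p = 0.222 and 0.148).

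Among the named genes called by edgeR only without replicate 2, the 6 with the smallest adjusted p were MATE, CLAVATA1, gln, BI-1, VDE and KCP1. They were picked by what leaving out replicate 2 does, so the position of replicate 2 in them largely follows from the choice and is no test. CLAVATA1 (LOC106405823), a receptor kinase known from shoot meristems, stood at 3.33, 16.9 and 2.46 CPM in the double line and 18.4, 13.5 and 10.3 CPM in wild type. Replicate 2 was within the wild-type range and the other double libraries were below it, and the log2 fold change was -0.90 ± 0.48 SE, edgeR adjusted p = 0.255 with replicate 2 and -2.28 ± 0.36 SE, edgeR adjusted p = 2.27e-04 without it. MATE (LOC106427424), a transporter of the multidrug and toxin extrusion family, stood at 3.13, 8.48 and 1.80 CPM against 8.15, 10.6 and 7.23 CPM (log2 -1.81 ± 0.27 SE, edgeR adjusted p = 1.60e-04 without replicate 2). The glutamine synthetase gene gln (LOC106361531) stood at 94.1, 237 and 95.2 CPM against 181, 207 and 219 CPM, with replicate 2 the highest of all (log2 -1.09 ± 0.18 SE, edgeR adjusted p = 2.71e-04 without it). KCP1 (BNAA02G32290D) stood at 9.84, 15.9 and 10.2 CPM against 17.5, 15.7 and 17.9 CPM (log2 -0.76 ± 0.16 SE, edgeR adjusted p = 0.00314 without replicate 2). With all libraries DESeq2 called KCP1 (adjusted p = 0.0314), and limma called MATE on log2(FPKM + 0.1) and on log2(FPKM + 1) (adjusted p = 0.0141 and 0.0108). Of the 100 genes with the highest CPM in wild type in LD, 7 were lower and 1 higher at SD2 with all libraries, and 65 were lower and 0 higher without replicate 2, beside 3.31% and 9.63% lower over all genes. The shares over all genes are not matched to these 100 in level, so the comparison is not like for like.

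The 2 named genes that passed only with replicate 2 were highest in that library. This largely follows from how they were picked, so it is a description and no test. AGL20 (LOC106438253), a promoter of flowering, stood at 33.3, 80.0 and 35.0 CPM against 15.8, 15.6 and 19.3 CPM, above wild type in every double library (log2 1.55 ± 0.45 SE, edgeR adjusted p = 0.0415, and 1.01 ± 0.45 SE, edgeR adjusted p = 0.126 without replicate 2). In LD AGL20 stood at 79.5, 64.9 and 43.5 CPM against 28.3, 30.2 and 26.2 CPM. At SD1 it stood at 49.8, 28.5 and 142 CPM against 20.1, 23.0 and 24.0 CPM. Every double library was thus above wild type at these stages too. CHSB1 (LOC106367233), a chalcone synthase at the entry to flavonoids, stood at 5.19, 29.3 and 3.65 CPM against 0.913, 2.79 and 1.63 CPM (log2 2.84 ± 0.84 SE, edgeR adjusted p = 0.0462, and 1.31 ± 0.78 SE, edgeR adjusted p = 0.263 without replicate 2). It was the 1 called of 17 phenylpropanoid and flavonoid genes, beside 3.49% of all genes called higher. Without replicate 2, 0 of the 17 were called while 1 had an unadjusted p under 0.05. The other called genes among the 24 with the largest folds were LRP (LOC106354211), at 105, 57.9 and 90.3 CPM against 31.7, 46.3 and 25.1 CPM (log2 1.30 ± 0.34 SE, edgeR adjusted p = 0.0256), and UBQ10.2 (LOC106347129), a polyubiquitin gene, at 69.2, 82.2 and 67.2 CPM against 164, 127 and 145 CPM (log2 -0.995 ± 0.25 SE, edgeR adjusted p = 0.0231). In LD UBQ10.2 stood at 105, 79.4 and 60.2 CPM in the double line and 106, 57.4 and 60.9 CPM in wild type, which was thus higher at SD2. Among 39 plastid-encoded and 26 mitochondrion-encoded genes, 0 passed with edgeR, both with and without replicate 2, 0 had an unadjusted p under 0.05 in either fit, and DESeq2 called 0. The plastid genes summed to 101, 59.4 and 186 CPM in the double line and to 135, 140.2 and 154 CPM in wild type, so replicate 2 was the lowest and replicate 3 the highest of the 6 libraries.

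**Figure D3:**
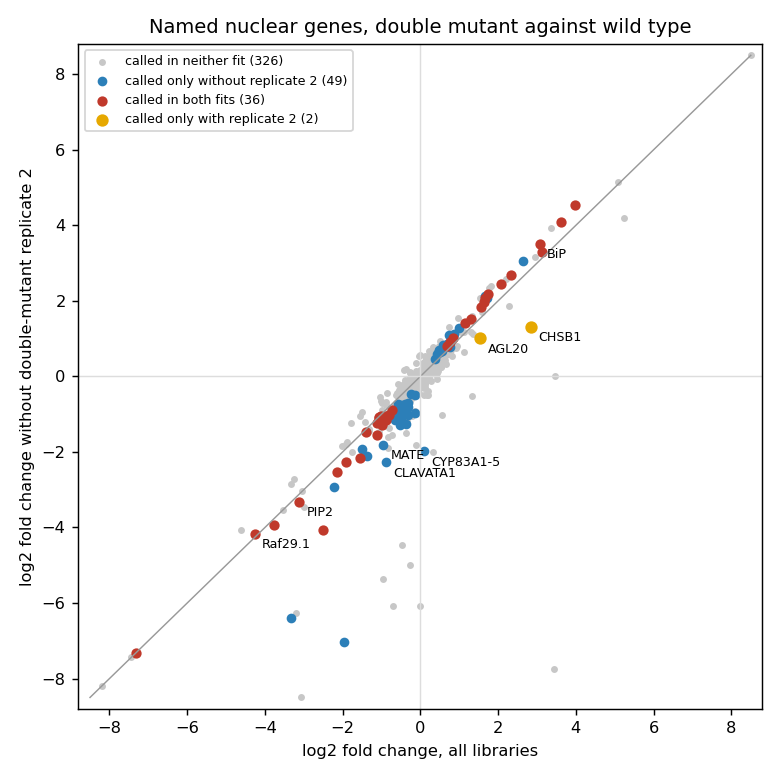
Log2 fold change at SD2, double line over wild type, with all libraries (x axis) and without double replicate 2 (y axis) for 413 named nuclear genes, coloured by the fit that called them; the diagonal marks equal values, and values beyond 8.5 are drawn at the edge. The 49 genes called only without replicate 2 (blue) mostly lie farther from 0 on the y axis than on the x axis, and AGL20 and CHSB1 lie closer. Both patterns largely follow from sorting the genes by the fit that called them.

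The call did not depend on any single library for 796 genes, which passed whichever of the 6 libraries was left out (416 higher and 380 lower). The 9 named ones were BiP, Crt1, LSC222, CPK4.1, PIP2, BRI1, CIPK14.1, CTR1 and Raf29.1. Of these 796 genes, 216 were also called in the same direction in LD, before the transfer. Against wild type in LD, 470 genes were called (0.652%), and 302 of them were called in the same direction at SD2, which is 64.3% of the LD list and 6.16% of the SD2 list. At SD1, 407 genes were called (0.565%), and 310 were shared in the same direction with SD2, 76.2% of the SD1 list and 6.33% of the SD2 list. The LD, SD1 and SD2 comparisons use separate libraries of both genotypes.

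**Figure D4:**
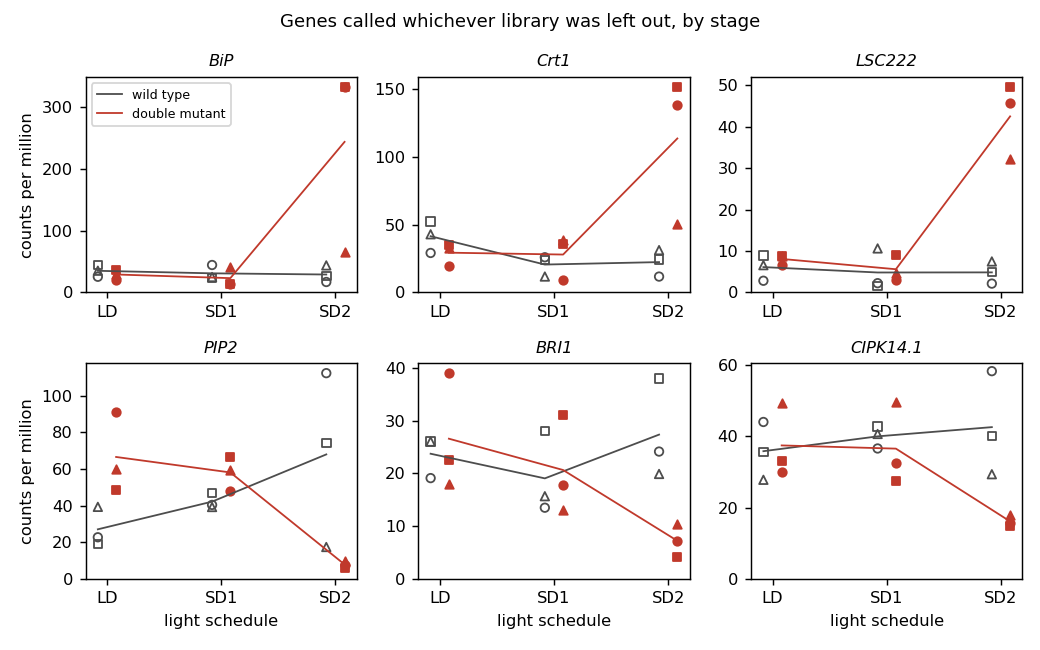
Normalised CPM (y axis) in long days (LD) and at SD1 and SD2 (x axis) of 6 of the 9 named genes that were called at SD2 whichever library was left out, with points for the libraries (open grey for wild type, filled red for the double line, shape for the replicate) and lines through the means of 3. BiP, Crt1 and LSC222 of the double line stood above wild type at SD2 but overlapped it in LD and at SD1, and PIP2, BRI1 and CIPK14.1 of the double line stood below it at SD2.

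The change of the difference between LD and SD2 was tested as an interaction. It passed for 4446 genes (6.17%), of which 2497 moved up and 1949 down in the double line relative to wild type. The count was 10643 without double replicate 2 at SD2, but 16 and 80 without double replicates 1 and 3, 97 and 189 without wild-type replicates 1 and 3 at SD2, 27 without double replicate 1 in LD and 10 without wild-type replicate 3 in LD. Of the 18 named genes described whose difference changed, PIP2 alone passed whichever of the 12 libraries was left out, and the others passed in 1 to 6 of these 12 fits. PIP2 went from a log2 difference of 1.30 in LD and 0.46 at SD1 to -3.12 at SD2, a change of -4.42 ± 0.63 SE (edgeR adjusted p = 0.00585) from LD. Its level in the double line fell from 66.6 ± 22.1 CPM in LD (mean ± SD, n = 3) to 7.83 ± 1.90 CPM at SD2, while in wild type it went from 27.05 ± 10.8 to 68.0 ± 47.8 CPM. BiP went from -0.27 in LD to 3.07 at SD2, a change of 3.33 ± 0.81 SE (edgeR adjusted p = 0.0256), and Crt1 from -0.50 to 2.34, a change of 2.84 ± 0.66 SE (edgeR adjusted p = 0.0234). BRI1 changed by -2.09 ± 0.50 SE (edgeR adjusted p = 0.0248), and CPK30.1 by -2.23 ± 0.47 SE (edgeR adjusted p = 0.0207); BiP, Crt1, BRI1 and CPK30.1 each passed in 6 of the 12 fits. The interaction between SD1 and SD2 passed for 16 genes (0.0222%), 3 up and 13 down, although 11066 genes had an unadjusted p under 0.05, DESeq2 called 1348 and edgeR without double replicate 2 called 4169 (1544 up and 2625 down). The replicate block gave 1 gene, and leaving out 1 library gave 1 or 2 genes in 9 of 12 cases, and 299 and 435 without wild-type replicate 2 at SD2 and double replicate 2 at SD1. PIP2 was the 1 named gene among the 16, and it passed in 3 of these 12 fits, with adjusted p up to 0.184.

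At SD2 the single line differed from wild type in 1845 genes (2.56%). These libraries of wild type serve both comparisons, so the values are set side by side only. The double and single lines were compared directly, and 5403 genes differed (7.50%), 3186 higher and 2217 lower in the double line, with 11941 genes called when double replicate 2 was left out, 2616 and 2695 without double replicates 1 and 3, and 3068 and 2587 without single replicates 2 and 3. SUT2-1 averaged 55.7 ± 5.91 CPM in the single line, close to the 55.8 ± 15.9 CPM of wild type, and was lower in the double line than in the single line (edgeR adjusted p = 0.0306). CTR1 averaged 11.8 ± 2.05 CPM in the single line, between the other genotypes, and its difference between double and single line did not pass (log2 -0.42, edgeR adjusted p = 0.161).

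Some differences were present or absent transcripts rather than shifts. At SD2, 127 genes were at 0 in all 3 double libraries with at least 10 counts in every wild-type library, and 60 of these were at 0 in all 9 double libraries. The reverse held for 84 genes, 52 of them at 0 in all 9 wild-type libraries. Many also set the single line apart from wild type: 44 of the 60 were at 0 in all 9 single libraries, and 32 of the 52 had at least 10 counts in every single library at SD2. LOC106361911 had no count in wild type at SD2 and stood at 19.5, 28.1 and 24.0 CPM in the double line, at least 427-fold higher against a floor of 3 counts per library (edgeR adjusted p = 1.25e-10). LOC106361912 likewise had no count in wild type and stood at 10.9, 10.6 and 11.05 CPM (at least 194-fold higher, edgeR adjusted p = 1.85e-11). In the single line they averaged 22.5 and 9.80 CPM. LOC106433823 had no count in the double line at SD2 and 22.7, 25.1 and 20.0 CPM in wild type (at least 429-fold lower, edgeR adjusted p = 3.68e-04). LOC106420154 had none at SD2 against 11.6, 15.6 and 24.7 CPM (at least 329-fold lower, edgeR adjusted p = 1.52e-06). These lower genes averaged 0.246 and 0 CPM in the single line at SD2, and 0.220 and 0.00661 CPM in the double line in LD.

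Position in the genome was read from the gene order of the Da-Ae assembly, in which 55440 of the tested genes have a chromosome, and the build of the files themselves is not given in the sources used here. Runs of neighbouring genes shifted in the double line were found on the LD libraries alone, as stretches of at least 21 genes whose running median over 41 genes passed 0.6 on the log2 scale. They gave 2 runs, and both were present at SD2. A run of 335 genes on chromosome A3 had a median log2 difference of 0.91 in LD, 0.93 at SD1 and 0.88 at SD2, and at SD2 the medians of double replicates 1, 2 and 3 minus the wild-type mean were 0.90, 0.88 and 0.83. Of its genes, 136 were called higher and 1 lower at SD2, 40.6% beside the 3.49% of all genes. Its named members are BOR, MYB12.1, Raf33, CPK4.1 and WRKY42, at log2 0.76, 0.83, 0.15, 1.56 and 0.33 at SD2, and CPK4.1 alone passed in edgeR with all libraries. BOR, a name for boron transporters, did not pass there (adjusted p = 0.0541), passed in edgeR without replicate 2 (adjusted p = 0.0439), and with all libraries was called by DESeq2 (adjusted p = 0.0203) and by limma on log2(FPKM + 1) (adjusted p = 0.0466). Raf33 had been called at log2 1.35 in LD and 1.02 at SD1. A run of 32 genes on chromosome A9 had medians of -4.89 in LD, -3.87 at SD1 and -3.99 at SD2, and 19 of its genes were called lower and 0 higher at SD2, beside 3.31% of all genes. The medians of double replicates 1, 2 and 3 minus the wild-type mean were -3.66, -3.12 and -3.65 there, so in both runs replicate 2 stood near the other double libraries. Over whole chromosomes, runs included, 2.68% to 4.73% of the tested genes were higher on each chromosome other than A3, where the share was 6.76%, and 2.76% to 4.12% were lower on each of the 19.

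**Figure D5:**
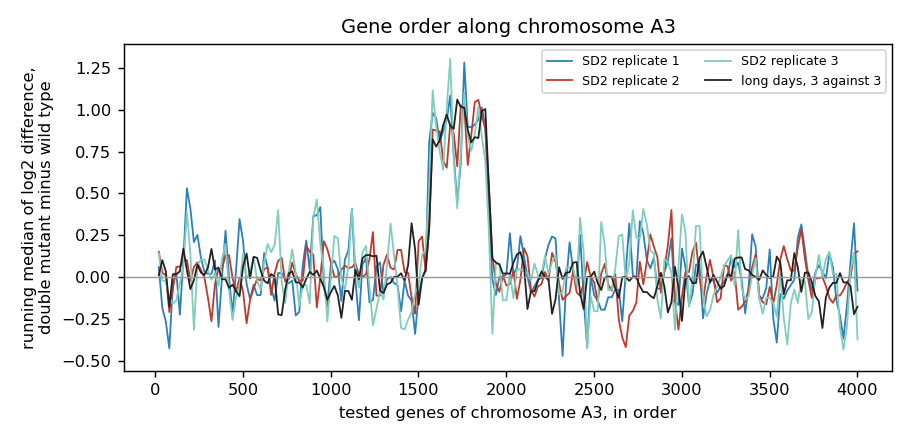
Running median over 41 genes of the log2 difference between the double line and wild type (y axis) along the tested genes of chromosome A3 in the order of the Da-Ae assembly (x axis), for each double library at SD2 minus the wild-type mean and for the LD contrast. The 3 SD2 libraries and the LD contrast rise together over 1 run of 335 genes, where their medians are 0.90, 0.88, 0.83 and 0.91.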

How the data were processed

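RNA was taken from leaves with TRIzol and made into TruSeq v2 libraries, per the labels' protocols. Per the submitters' processing notes, Trim Galore and HISAT2 were used; the sources used here name no version, genome build or counting tool. The authors deposited raw counts per gene, not scaled to library size, and these were used as deposited. The authors also deposited FPKM values, scaled to transcript length and depth by a method not stated, which served only as an alternative. Groups follow the genotype and stage labels.

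Of 119533 entries in the count table, 1 without a gene name was dropped (1.09e-05% of counts). RefSeq's table for the Da-Ae assembly matched 85844 of the rest and supplied 484 symbols, and 231 organelle genes are named in the table itself. Genes were tested with edgeR 4.0.16 in R 4.3.3. The default filter by group kept 72039 genes, library sizes were scaled with TMM (factors 0.862 to 1.14), and all 27 libraries entered 1 robust quasi-likelihood fit of 9 groups (18 residual degrees of freedom, common biological coefficient of variation 0.399). Adjusted p-values are Benjamini-Hochberg over all genes tested, with a threshold of 0.05, and SE is the absolute log2 fold change over the root of the F statistic. The script was tested on simulated counts with the same spread for every gene and no library set apart. That test therefore does not bear on the effect of double replicate 2. Replicates of the same group differed far beyond counting noise, so depth limits only low counts. Oilseed rape carries near-identical copies of most genes, and how reads shared between copies were counted is not given, so values of single copies are uncertain.

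The 12 higher and 12 lower named genes were those of largest fold change that passed, reached a mean of 5 CPM or more in 1 group and did not overlap between the libraries. To these came members of gene lists (all where at most 6 were tested, else called ones), the 2 higher and 2 lower unnamed genes of largest fold, and the 6 named genes of smallest p called only without double replicate 2. The genes and lists were chosen with earlier results of these data known. AGL20 has a second copy (LOC106450890) that did not pass. Alternatives were RLE factors, no filter, DESeq2 1.42.0, a replicate block, the 6 libraries alone, limma 3.58.1 on log2(FPKM + 0.1) and on log2(FPKM + 1), and leaving out each library in turn. A group left with 2 libraries shares the spread of the others. FAH genes are not reported here, and no sequence is shown.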

Additional observations from a re-analysis of the deposited data

Results flagged for a closer look

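The difference between the double line and wild type changed from LD to SD2 for 18 of the named genes described here, each by an interaction test of the difference itself with edgeR. The log2 change was 3.33 for BiP, 2.84 for Crt1, 2.05 for LRP, 2.05 for the ribosomal protein gene RPS6 and 1.10 for BOR, all upward (adjusted p from 0.0234 to 0.0498). It was -4.42 for PIP2, -4.80 for NAC29.1, -3.87 for SUT2-1, -3.27 for Raf29.1, -2.23 for CPK30.1, -2.09 for BRI1, -1.58 for ZIK5 and -1.47 for CIPK14.1. Smaller downward changes were found for Raf33 at -1.20, ZEP at -1.25, CTR1 at -1.20, cry1 at -1.19 and ugt2 (LOC106398879) at -1.13. Adjusted p for the downward genes ran from 0.00585 for PIP2 to 0.042 for NAC29.1. From SD1 to SD2, PIP2 changed by -3.58 (edgeR adjusted p = 0.0457). RPS6 (LOC106373247) moved from log2 -1.15 in LD to 0.91 at SD2, and neither difference passed at its own stage. PIP2 passed the test from LD to SD2 whichever of the 12 libraries was left out, and the other 17 genes in 1 to 6 of the 12 fits. From SD1 to SD2, PIP2 passed in 3 of 12.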

How the results depend on the processing

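The 4899 genes called at SD2 became 8968 with DESeq2, 7374 with limma on log2(FPKM + 1) and 272 when the other 21 libraries were dropped, and the cause was not tested. They numbered 1126 to 13280 when 1 of the 6 libraries was left out. DESeq2 gave 8160 in place of 4446 genes for the change from LD, 1348 in place of 16 for the change from SD1, and 8789 in place of 5403 for the double against the single line. Leaving out 1 library gave 10 to 10643, 1 to 4169 and 2587 to 11941 genes for these 3, with the highest count in each without double replicate 2. RLE factors, no filter on low counts and limma on log2(FPKM + 0.1) kept each count they were run for within 1.5 times. The labels do not say whether same-numbered libraries of different groups belong together, and the main fit did not pair them. Same-numbered double and wild-type libraries at SD2 deviated together at correlations of 0.0392, 0.117 and 0.130, and each double library correlated best with its own number. The other stages did not show this. The same-numbered values were 0.0724, -0.112 and 0.161 in LD and -0.175, -0.143 and 0.158 at SD1. Only double replicate 3 correlated best with its own number there. A replicate block gave 4077, 3509, 1 and 4939 genes for the 4 comparisons, and 30 of the 38 named genes called kept their call under it. The other 8, with adjusted p under the block, were MyAP1 (0.0543), WRKY26-1 (0.0524), NAC29.1 (0.0544), CPK3-2.1 (0.0573), MAPKKK20.1 (0.0597), AGL20 (0.0591), CHSB1 (0.0622) and DIL1 (0.0671).

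Values near 0 changed sign in some fits. CYP83A1-5 stood at -0.16 under the replicate block, -0.67 with limma on log2(FPKM + 0.1) and -0.65 on log2(FPKM + 1), and ran from -1.99 to 0.64 with 1 library left out. SUT4-2 stood at 0.081 and 0.017 with the same 2 limma fits and ran from -0.34 to 0.21, BSK2 from -0.23 to 0.031, ZDS from -0.48 to 0.044, and Raf33 from -0.12 to 0.34. Depth limits only genes near the floor of 3 counts per library, such as WRKY74-1.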
